A study of Mus musculus with 24 samples.

Results

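Distal mouse chromosome 2 carries 421 genes, described here, that lie up to 63.5 Mb beyond Eif2ak4, the gene for the kinase Gcn2. They were chosen by position, abundance and symbol. A gene was taken if its midpoint in the GENCODE M21 annotation (GRCm38) lay more than 19.6 Mb beyond that of Eif2ak4 on chromosome 2 and its expected counts summed to at least 240 over 24 libraries. Trib3, Mmp9, Cebpb and symbols starting with Kcn, Nduf, Rpl, Rps, Eif, Atp5 or Cox were left out, which removed 13 of 434 genes. The 421 genes were 421 of the 38924 genes in the deposited tables and of 996 annotated in that stretch, whatever their counts. Of the 421, 366 were protein coding. The summed counts ran from 245 to 1077270 with a median of 12661, and since they chose the genes they are given only as a description. At the limit of position, Slx4ip and Jag1 (midpoints 136.982 and 137.099 Mb) lay just outside, and Btbd3 and Sptlc3 (138.423 and 139.566 Mb) just inside. At the count limit, Pet117 and Gm14406 (238.19 and 239.57 counts) lay just outside, and Foxs1 and Gm17096 (245 and 253 counts) just inside.

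The study sequenced poly(A) RNA from the whole spinal cord of 24 mice aged 8 weeks, in a cross of Gcn2 genotype with Gars genotype on the strain background given as B6J;CASTxB6.129. With 2 wild-type Gars copies there were 4 Gcn2+/+, 4 Gcn2+/- and 3 Gcn2-/- mice, and with the GarsP278KY/+ genotype 4 Gcn2+/+, 4 Gcn2+/- and 5 Gcn2-/- mice. Of the 24 mice, 13 were male and 11 female. Every mouse is 1 library, and replicate numbers here only name the libraries. The labels give genotypes but not how the Gcn2 allele was made, nor which strain each stretch of a chromosome came from.

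Gcn2 is a kinase that is activated by uncharged transfer RNA and stalled ribosomes and phosphorylates the initiation factor eIF2, and Gars encodes glycyl-tRNA synthetase, in which dominant mutations cause an inherited peripheral neuropathy. Genes on the same chromosome as a followed allele are inherited together with it, and crossing over parts them more often the farther apart they lie. Where the parents of a cross come from different strains, a gene near the followed allele can therefore carry a different strain's sequence in each genotype group. The distal genes have unrelated functions, from methyl group metabolism to microtubule organisation, and share position.

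Promoters are shown for 3 genes that the results turn on, Kiz, Cst12 and Ahcy, because they stand for 3 patterns: a graded fall, a loss to near 0 and a graded rise with lost Gcn2 copies. The sequences are those of the reference genome from RefSeq (GRCm38.p6), 250 bases before to 50 bases after the gene start, 5′ to 3′ on the gene's strand, and are not read from the mice of the study. Capitals mark matches on either strand to the core of the GC box, which is GGGCGG, to the CCAAT box, to the TATA box, searched as TATAAA, or to a form of the C/EBP-ATF response element, searched as TGATGCAAT.
Kiz: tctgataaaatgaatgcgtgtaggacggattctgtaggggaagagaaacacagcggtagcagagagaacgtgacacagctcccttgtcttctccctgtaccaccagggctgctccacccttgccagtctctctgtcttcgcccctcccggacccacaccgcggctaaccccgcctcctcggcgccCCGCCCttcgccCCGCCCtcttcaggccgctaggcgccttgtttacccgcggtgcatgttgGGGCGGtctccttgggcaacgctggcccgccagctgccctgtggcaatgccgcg
Cst12: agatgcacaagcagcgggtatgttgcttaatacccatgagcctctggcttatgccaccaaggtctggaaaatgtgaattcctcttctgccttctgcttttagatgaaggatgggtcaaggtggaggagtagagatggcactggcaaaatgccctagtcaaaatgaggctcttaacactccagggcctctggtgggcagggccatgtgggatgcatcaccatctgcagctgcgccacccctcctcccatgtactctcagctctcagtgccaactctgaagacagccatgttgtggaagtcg
Ahcy: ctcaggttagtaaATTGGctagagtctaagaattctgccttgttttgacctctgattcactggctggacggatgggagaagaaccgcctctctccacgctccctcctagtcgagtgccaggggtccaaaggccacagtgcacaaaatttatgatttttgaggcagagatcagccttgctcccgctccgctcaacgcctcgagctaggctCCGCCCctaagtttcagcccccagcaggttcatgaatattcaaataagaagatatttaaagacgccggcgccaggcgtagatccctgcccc
The Kiz promoter (chr2:146855630-146855929, plus strand) held 3 GGGCGG matches, the Ahcy promoter (chr2:155074448-155074747, minus strand) 1 GGGCGG and 1 CCAAT match, and the Cst12 promoter (chr2:148789115-148789414, plus strand) none of the 4 motifs. The motifs were searched on both strands in 32851 promoters of 300 bases, and 314 of the 421 genes, with 396 promoters, were in that table. The 32851 promoters were not filtered by counts, whereas the distal genes were chosen by counts, so the sets differ in more than position. GGGCGG was in 54.5% of the distal genes' promoters and in 35.7% of all promoters. CCAAT was in 40.2% against 37.4%, and TATAAA in 5.81% against 13.6%. TGATGCAAT was in none of the 396 promoters and in 0.192% of all promoters. A match or its absence describes only these letters in this window.

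Expected counts per library summed to between 19727467 and 32392753, of which the distal genes took 2.35% to 2.59%. Levels below are CPM, that is, counts scaled to the size of the library with trimmed mean factors, and all 421 genes passed the filter on low counts among 17409 genes tested. Apart from the genotype, sex and age, the labels say nothing of how the mice of a group are related. The p-values set a change against the spread between these mice and treat the mice as independent. Eif2ak4 (chr2:118388618-118475234) matched the Gcn2 labels in every library. It had 28.9 to 34.4 CPM in the 8 Gcn2+/+ libraries, 20.4 to 23.6 in the 8 Gcn2+/- libraries and 11.4 to 15.0 in the 8 Gcn2-/- libraries, so the groups did not overlap.

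Several libraries stood apart before any comparison. Markers of Schwann cells and nerve roots (7 of 7 measured, none at 0 in every library) were high in 5 libraries: replicates 2 and 4 of Gcn2+/+;GarsP278KY/+, replicates 1 and 3 of Gcn2+/-;Gars+/+ and replicate 4 of Gcn2+/-;GarsP278KY/+. Their mean log2 CPM was 3.40 to 6.34 there and at most 1.92 in the other 19 libraries. The summed marker level reached 2251 CPM in Gcn2+/+;GarsP278KY/+ and 1889 CPM in Gcn2+/-;Gars+/+. It was 54.6 to 77.6 CPM in Gcn2+/+;Gars+/+ and at most 93.2 CPM in any Gcn2-/- library. The high level thus belonged to single libraries of 3 groups, none of them Gcn2-/-, and a difference between groups was not tested. Markers of meninges and fibroblasts (8 of 8 measured) reached 1460 and 785.7 CPM in the same 2 groups. Marker genes of spinal cord neurons (7 of 7 measured) summed to 3302 to 5310 CPM over the 24 libraries, so the markers of the labelled tissue were present throughout. With GarsP278KY/+ they summed to 3302 to 3833 CPM in Gcn2+/+, 3699 to 4374 in Gcn2+/- and 4264 to 4700 in Gcn2-/- libraries. With wild-type Gars the ranges were 4727 to 5310, 4362 to 5091 and 4686 to 4967 CPM, which overlap. The part of these levels in the changes with Gcn2 copies was not tested. In bulk tissue, fewer cells of a type and less RNA per cell cannot be told apart.

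At distal chromosome 2 itself, 5 libraries carried values typical of a different Gcn2 copy number. Gcn2+/+;GarsP278KY/+ replicate 2 is in this set and in the set high in Schwann cell markers, so it is left out with either set below. Ahcy, the enzyme that hydrolyses S-adenosylhomocysteine in the methylation cycle, fell into 3 separate ranges: 4.89 to 6.42 CPM in 5 libraries, 14.2 to 19.4 in 11 and 29.4 to 38.6 in 8. Cst12, a cystatin protease inhibitor gene, also fell into 3 ranges, in the opposite order: 8.86 to 14.3, 3.40 to 6.07 and 0 to 0.0747 CPM. The 3 sets of libraries were identical for the 2 genes, which lie 36.6 and 30.4 Mb from Eif2ak4. The lowest Ahcy set held 5 Gcn2+/+ libraries, the middle set 7 Gcn2+/- libraries together with 3 Gcn2+/+ and 1 Gcn2-/-, and the highest set 7 Gcn2-/- libraries and 1 Gcn2+/-. The 3 Gcn2+/+ libraries were replicate 4 with wild-type Gars and replicates 1 and 2 with GarsP278KY/+, the Gcn2-/- library was replicate 1 with wild-type Gars, and the Gcn2+/- library was replicate 1 with GarsP278KY/+. In all 5 the Eif2ak4 level matched the Gcn2 label.

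A relative position shows how far along the chromosome these 5 libraries departed. For each gene called for Gcn2 copy number, a library was placed on a log2 scale where 0 is the Gcn2+/+ median and 1 the Gcn2-/- median, and the median over genes was taken in stretches of about 10 Mb. Since the same libraries chose the genes, the values are a description. Over the called distal genes, the other libraries lay at -0.19 to -0.03 with 2 copies, 0.42 to 0.52 with 1 copy and 1.00 to 1.07 with 0 copies. Gcn2+/+;Gars+/+ replicate 4 and Gcn2+/+;GarsP278KY/+ replicate 2 were already shifted next to Eif2ak4 (0.40 and 0.34) and stayed shifted over the distal genes (0.27 and 0.34). These 2 libraries alone carry their title number, and the labels do not say what the number means. Gcn2+/+;GarsP278KY/+ replicate 1 lay at -0.10 in the first 9.6 Mb beyond Eif2ak4, at 0.24 in the next 10 Mb and at 0.32 over the distal genes. Gcn2-/-;Gars+/+ replicate 1 went from 1.00 beside Eif2ak4 to 0.74 and then to 0.46, 0.51 and 0.60 in the distal stretches. Gcn2+/-;GarsP278KY/+ replicate 1 changed inside the distal genes, from 0.47 at 19.6 to 29.6 Mb to 1.11 and 1.06 beyond. The cause of these shifts was not tested.

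**Figure D1:**
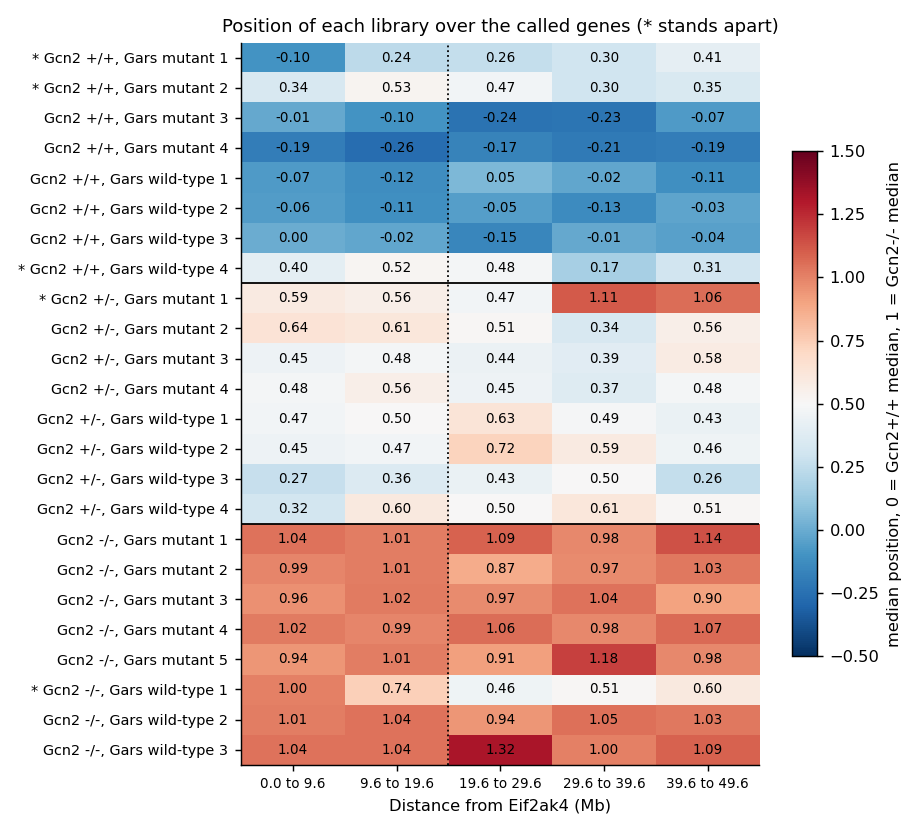
Relative position of each library (horizontal strips of cells, grouped by Gcn2 copies) over the genes called for Gcn2 copy number, by distance from Eif2ak4 in Mb (across, the dotted line marks the start of the distal genes). 0 is the Gcn2+/+ median and 1 the Gcn2-/- median on a log2 CPM scale. The 5 libraries marked with an asterisk leave the range of their own copy number, for example Gcn2-/- wild-type Gars replicate 1 at 0.46 in the first distal stretch.

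The main question was how far along chromosome 2 expression differed with Gcn2 copy number. Taking the mean of both Gars genotypes, 32 of the 421 genes (7.60%) changed with each lost Gcn2 copy at an adjusted p below 0.05 (edgeR quasi-likelihood test, Benjamini-Hochberg over all genes), against 0.666% of all genes tested. Of these, 23 rose and 9 fell, and 28 were protein coding. The rises ran from 0.08 to 0.86 on the log2 scale per copy with a median of 0.20, and the falls from -0.11 to -2.20 with a median of -0.32. Over all 421 genes the median log2 change was 0.005 and over all genes tested -0.001. All 32 had the same sign in both Gars genotypes and a Gcn2+/- median between the other 2 medians (8 libraries each). In 8 of the 32, namely Pcsk2os1, Fitm2, Gss, Zhx3, Uqcc1, Dbndd2, Pdrg1 and Ndrg3, the 8 Gcn2+/+ libraries did not overlap the 8 Gcn2-/- libraries. The 32 were chosen by slopes over these same libraries, which favours such agreement, so these counts are a description. Their shares over all genes were not counted. The unadjusted p was below 0.05 for 120 distal genes (28.5%, against 5.72% of all genes). By DESeq2 57 were called (against 1.09%).

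The share of genes called for the mean effect was about the same over 3 stretches and then dropped. Between 19.6 and 29.6 Mb from Eif2ak4, 5 of 39 genes were called (12.8%), between 29.6 and 39.6 Mb 15 of 141 (10.6%) and between 39.6 and 49.6 Mb 12 of 95 (12.6%). Beyond 49.6 Mb the edgeR test called 0 of 146 genes. There, 3 genes (2.05%) had an unadjusted p below 0.05, namely Gm26883, Cbln4 and Rtf2. DESeq2 called 1 of the 146, Gm26883, and so did edgeR with the title number as a further term. Within 20 Mb of Eif2ak4 on both sides, 54 of 326 genes were called (16.6%), over the rest of chromosome 2 6 of 659 (0.91%) and on other chromosomes 19 of 15694 (0.121%). The unadjusted shares in the first 3 distal stretches, 43.6%, 41.8% and 43.2%, were close to the 44.2% found within 20 Mb. The nearest called gene was Esf1, 21.7 Mb from Eif2ak4, and the farthest Prex1, 48.2 Mb away with a midpoint at 166.6 Mb. Beyond Prex1 lay 165 further genes, the last at 63.5 Mb from Eif2ak4. With GarsP278KY/+ alone, 1 gene beyond 49.6 Mb was called, Cass4 at 54.0 Mb.

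**Figure D2:**
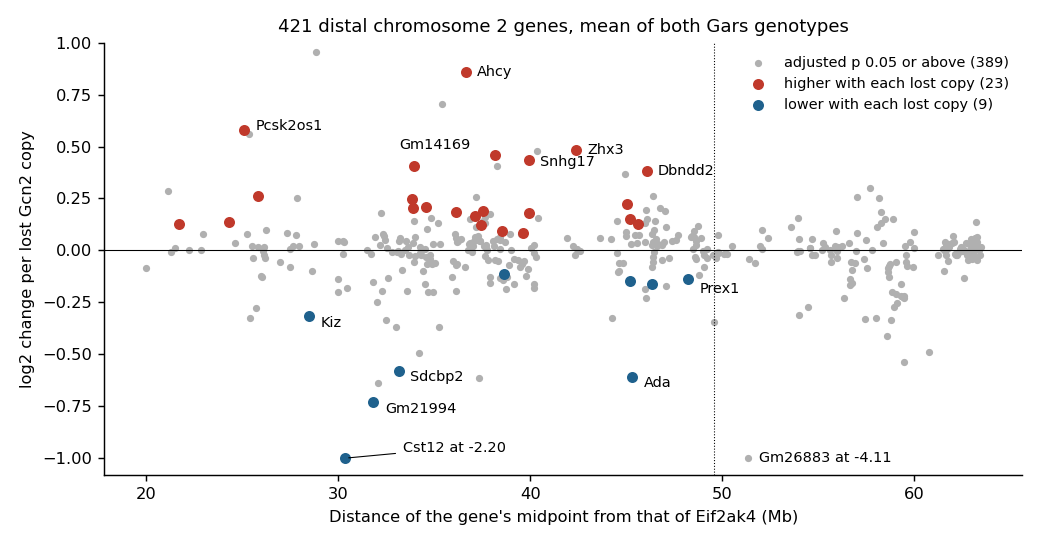
Change in expression per lost Gcn2 copy (log2, vertical axis) of each of the 421 genes against its distance from Eif2ak4 in Mb (horizontal axis). Red and blue points are the 23 and 9 genes with an adjusted p below 0.05, grey points the others, and the dotted line marks 49.6 Mb, beyond which none of the 146 genes was called for this mean effect. Cst12 and Gm26883 lie below the axis and are drawn at its lower end.

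**Figure D3:**
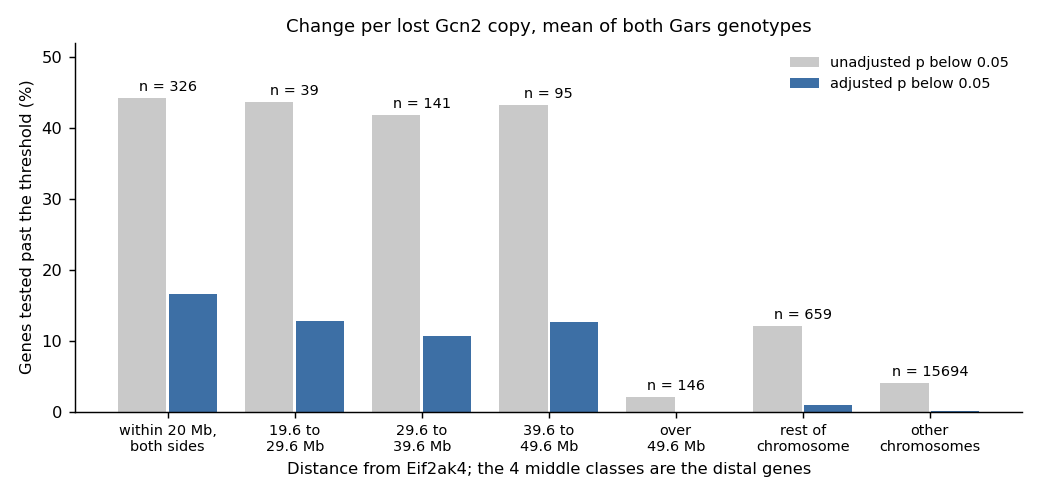
Share of tested genes (vertical axis, percent) with an unadjusted (grey) or adjusted (blue) p below 0.05 for the change per lost Gcn2 copy, by distance class. The first 3 distal classes stand near the 20 Mb window around Eif2ak4, and the class over 49.6 Mb has 0 of 146 genes called.

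Within each Gars genotype fewer genes passed. With wild-type Gars, 1 distal gene was called per lost copy, Pcsk2os1, against 0.023% of all genes. That call held in 10 of 35 settings, and 64 distal genes had an unadjusted p below 0.05 (15.2%, against 3.74% of all genes). With GarsP278KY/+, 10 were called, against 0.454%: Pcsk2os1, Fitm2, Csnk2a1, Gss, Uqcc1, Zhx3 and Pcsk2 rose, and Kiz, Gm21994 and Cass4 fell. The difference between the 2 effects was tested directly, and edgeR called it for 0 distal genes, against 0.0172% of all genes. For 14 distal genes (3.33%, against 4.78% of all genes) its unadjusted p was below 0.05. By DESeq2 1 was called, Gm26883 (against 0.0862%). A difference in effect between the Gars genotypes was therefore not shown for any distal gene by edgeR, and the counts of 1 and 10 do not show one. The smaller count came with 11 libraries and the larger with 13.

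Comparing Gcn2-/- with Gcn2+/+ alone gave a like picture. With GarsP278KY/+, 12 distal genes were called, against 0.494% of all genes; 7 rose and 5 fell, among them Rprd1b, Soga1 and Cst12 besides genes named above. With wild-type Gars, edgeR called 0, against 0.0287%. There the unadjusted p was below 0.05 for 64 (15.2%, against 3.68% of all genes). By DESeq2 5 were called, Rbck1, Ahcy, Fitm2, Snhg17 and Pcsk2os1 (against 0.218%). The Gcn2+/- libraries were also set against the midpoint of the other 2 genotypes on the log2 scale. edgeR called 0 distal genes away from that midpoint, against 0.00574% of all genes, and the unadjusted p was below 0.05 for 7 (1.66%, against 3.07%). By DESeq2 1 was called, Gm26883 (against 0.0574%).

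Each count moved with the libraries that stood apart. Without the 5 libraries whose Ahcy and Cst12 levels belonged with another copy number, 54 distal genes were called for the mean effect, 28 of the 32 among them. The counts were then 18 with wild-type Gars and 28 with GarsP278KY/+ per lost copy, and 18 and 29 for Gcn2-/- against Gcn2+/+. These libraries were picked by values of the same genes, so the larger counts are no independent evidence. Shares of all genes are not given for this setting, so the counts do not show whether the rise was particular to the distal genes. Beyond 49.6 Mb 1 gene was then called, Gm14292. Without the 5 libraries high in Schwann cell genes, 13 genes were called for the mean effect, all among the 32: Pcsk2os1, Fitm2, Kiz, Gss, Csnk2a1, Zhx3, Ahcy, Uqcc1, Snhg17, Snhg11, Pdrg1, Mgme1 and Cep250. The part of those cells in the other 19 calls was not tested. Leaving out single libraries, the count fell to 16 without Gcn2-/-;Gars+/+ replicate 3, to 17 without replicate 2 of that group and to 21 without Gcn2+/+;GarsP278KY/+ replicate 4. With the title number as a further term 30 genes were called, 21 of the 32 among them. In all 34 alternative settings the 32 genes kept their direction, and 12 were called in every one.

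Among genes of metabolism, 4 of 16 on the list were called, beside 32 of all 421 (7.60%) and 0.666% of all genes: Ahcy, Gss and Ttpal rose and Ada fell. Ahcy (chr2:155059310-155074497) had 5.89, 4.89, 6.42 and 14.2 CPM in the 4 Gcn2+/+;Gars+/+ libraries, 15.6, 17.4, 17.2 and 19.4 in Gcn2+/-;Gars+/+, and 16.8, 33.7 and 34.9 in Gcn2-/-;Gars+/+. With GarsP278KY/+ it had 15.7, 18.8, 5.61 and 5.31 CPM in Gcn2+/+, 36.8, 16.8, 17.0 and 18.3 in Gcn2+/-, and 29.4, 35.7, 35.5, 32.8 and 38.6 in Gcn2-/-. The groups overlapped only through the 5 libraries that stood apart. The mean log2 change per lost copy was 0.86 ± 0.14 (SE, adjusted p = 0.00338, edgeR), or 1.82-fold, and 1.28 without those 5 libraries, a value given as a description because the libraries were picked by the level of Ahcy itself. It was called in all 34 settings, and it was the largest rise among the 32.

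Gss, glutathione synthetase, moved less but evenly. Its level was 20.7 to 23.3 CPM in Gcn2+/+;Gars+/+, 23.3 to 25.5 in Gcn2+/-;Gars+/+ and 25.7 to 27.7 in Gcn2-/-;Gars+/+. With GarsP278KY/+ the ranges were 20.1 to 23.8, 23.1 to 28.6 and 25.6 to 29.7 CPM. The change per lost copy was 0.17 ± 0.03 log2 (SE, adjusted p = 0.00154, edgeR). Ttpal, a relative of the vitamin E transfer protein, rose by 0.15 ± 0.03 (adjusted p = 0.0134, edgeR). Ada, adenosine deaminase of purine salvage, fell by 0.61 ± 0.14 (adjusted p = 0.0395, edgeR) from a low level, with medians of 2.34, 1.72 and 0.86 CPM at 2, 1 and 0 copies, and was called in 14 of 34 settings. Fitm2, which acts in lipid droplet formation, is outside the list and had the second smallest p of the 32. It had 33.1 to 43.3 CPM in the Gcn2+/+ libraries, 41.6 to 51.6 in Gcn2+/- and 47.4 to 57.1 in Gcn2-/-, a rise of 0.22 ± 0.03 per copy (adjusted p = 0.000299, edgeR). Acot8, a peroxisomal acyl-CoA thioesterase, fell by 0.16 ± 0.04 (adjusted p = 0.0273, edgeR).

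Mgme1, Uqcc1 and Tomm34 are on none of the lists and are described together after their calls were seen, so no count of a group stands behind them. Mgme1, a nuclease of mitochondrial DNA, rose by 0.26 ± 0.05 (adjusted p = 0.0114, edgeR), with medians of 6.16, 7.85 and 9.42 CPM at 2, 1 and 0 copies. Uqcc1, an assembly factor of the cytochrome bc complex, rose by 0.12 ± 0.02 (adjusted p = 0.00355, edgeR) from a median of 52.5 to 62.1 CPM. Tomm34, a co-chaperone of mitochondrial protein import, rose by 0.13 ± 0.03 (adjusted p = 0.0298, edgeR) from a median of 47.2 to 58.0 CPM, and was called in 22 of 34 settings against 34 for the other 2.

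Cst12 (chr2:148789361-148793546) went from present to nearly absent. It had 9.20, 8.86, 10.6 and 5.22 CPM in Gcn2+/+;Gars+/+, 3.65, 3.91, 4.97 and 5.91 in Gcn2+/-;Gars+/+, and 5.13, 0.0747 and 0 in Gcn2-/-;Gars+/+. With GarsP278KY/+ it had 6.07, 4.74, 14.3 and 12.3 CPM in Gcn2+/+, 0, 5.93, 5.71 and 3.40 in Gcn2+/-, and at most 0.0379 in the 5 Gcn2-/- libraries. In the latter group 3 counts were assigned in all, against 1064 in the 4 Gcn2+/+ libraries, a ratio of 433.7 (exact 95% interval 147.99 to 2106, counting error only). The single high Gcn2-/- library and the single Gcn2+/- library at 0 are among those that stood apart. The mean log2 effect of -2.20 ± 0.49 per copy was called (adjusted p = 0.0395, edgeR), but in no more than 14 of 34 settings. The medians of Cst12 were 9.03, 4.44 and 0.0372 CPM at 2, 1 and 0 copies, so the log2 steps were unequal. With GarsP278KY/+ its call for Gcn2-/- against Gcn2+/+ held in 33 alternative settings and was lost in 2. Without the 5 libraries that stood apart, Gcn2+/- lay 3.00 ± 0.255 log2 above the midpoint of the other genotypes (adjusted p = 1.38e-05, edgeR). That value is a description, because Cst12 was used to pick those libraries.

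Cst3, cystatin C, lies, like Cst12, 30.4 Mb from Eif2ak4 and is among the most abundant distal genes, with a mean of 1641 TPM, a level scaled to transcript length and library. Its medians were 605.8, 559.7 and 484.0 CPM at 2, 1 and 0 copies. Its change of -0.18 ± 0.05 per copy did not pass the edgeR test (adjusted p = 0.102, edgeR), though DESeq2 called it. Without the 5 libraries that stood apart, the log2 change was -0.25 per copy and was called (adjusted p = 0.00943, edgeR). That value is a description, because those libraries were picked by the levels of Ahcy and Cst12, the neighbour of Cst3.

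**Figure D4:**
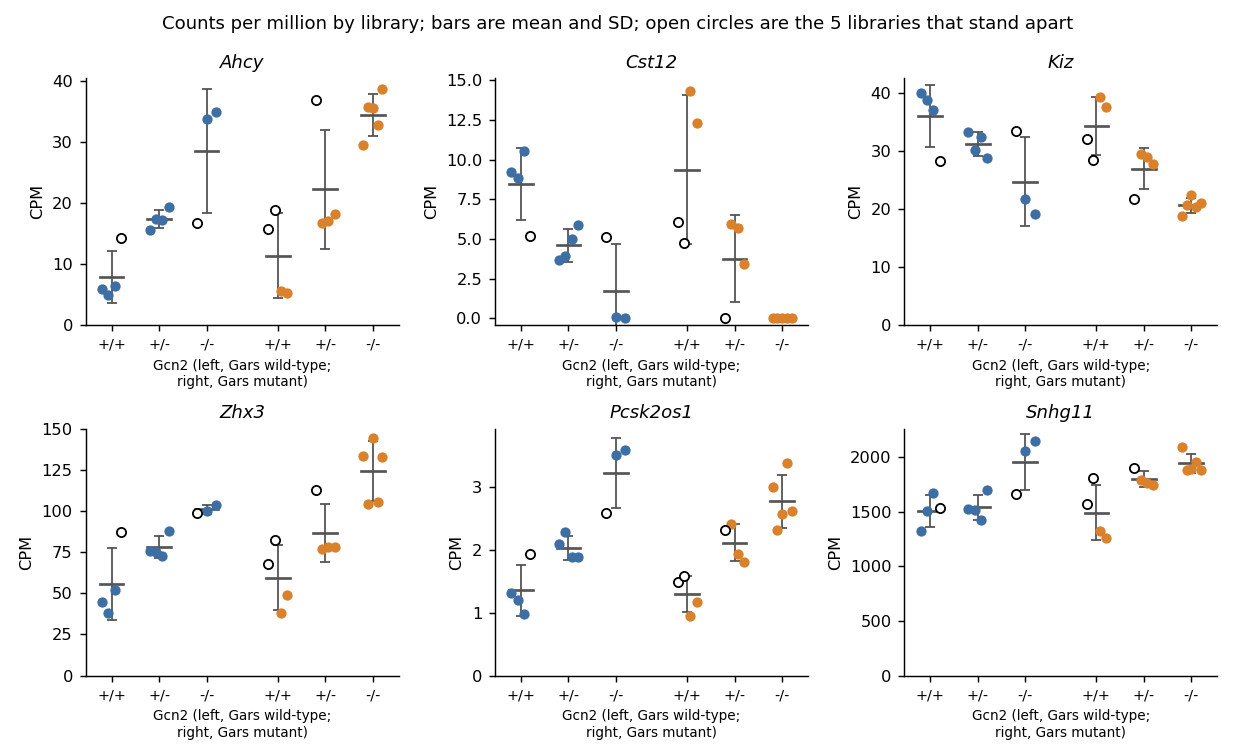
Level in CPM (vertical axes) of 6 distal genes in each of the 24 libraries by Gcn2 genotype, with wild-type Gars in blue and GarsP278KY/+ in orange. Bars are the mean and SD of each group, and open circles are the 5 libraries that stood apart, which sit with a neighbouring genotype for Ahcy and Cst12.

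Kiz, a centrosomal protein (chr2:146855864-146970097), had 40.0, 38.8, 37.0 and 28.3 CPM in Gcn2+/+;Gars+/+, 33.3, 30.2, 32.4 and 28.7 in Gcn2+/-;Gars+/+, and 33.4, 21.7 and 19.1 in Gcn2-/-;Gars+/+. With GarsP278KY/+ it had 32.1, 28.4, 39.3 and 37.5 CPM in Gcn2+/+, 21.8, 29.4, 28.9 and 27.9 in Gcn2+/-, and 18.8 to 22.4 in Gcn2-/-. With GarsP278KY/+ the Gcn2-/- libraries lay below every Gcn2+/+ library, and with wild-type Gars replicate 1 of Gcn2-/- overlapped them. The change was -0.32 ± 0.05 log2 per copy (SE, adjusted p = 0.00154, edgeR) and was called in all 34 settings. Cep250, a protein of centrosome cohesion, rose by 0.19 ± 0.04 (adjusted p = 0.0172, edgeR), and Kif16b, an endosomal kinesin, by 0.14 ± 0.03 (adjusted p = 0.015, edgeR). Soga1 fell by 0.11 ± 0.03 (adjusted p = 0.0391, edgeR) and was called in 13 of 34 settings.

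Csnk2a1, a catalytic subunit of casein kinase 2, had 83.2, 98.5, 101.4 and 125.4 CPM in Gcn2+/+;Gars+/+, 98.7 to 112.0 in Gcn2+/-;Gars+/+, and 110.4, 153.6 and 153.4 in Gcn2-/-;Gars+/+. With GarsP278KY/+ the ranges were 85.1 to 111.9, 118.6 to 130.8 and 141.1 to 151.6 CPM, which did not overlap. The rise was 0.25 ± 0.04 per copy (adjusted p = 0.00247, edgeR). Dbndd2, which binds casein kinase 1, rose by 0.38 ± 0.065 (adjusted p = 0.00383, edgeR), from 114.9 to 210.1 CPM in the Gcn2+/+ libraries to 224.9 to 332.6 in Gcn2-/-. Prex1, a Rac exchange factor and the farthest called gene, fell by 0.14 ± 0.03 (adjusted p = 0.035, edgeR). Its 8 Gcn2+/+ libraries had 142.5 to 179.5 CPM and its 8 Gcn2-/- libraries 106.9 to 150.0, which overlap, and it was called in 15 of 34 settings. Without the 5 libraries that stood apart its change was about as large, -0.13 ± 0.037, but Prex1 was not called (adjusted p = 0.212, edgeR). Of the 16 glial and myelin genes on the list, Prex1 and Ndrg3 were the 2 called, beside 32 of all 421 (7.60%) and 0.666% of all genes. Ndrg3 rose by 0.09 ± 0.02 (adjusted p = 0.0177, edgeR), the smaller change of the 2, though its libraries at 2 and 0 copies did not overlap.

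Of 25 genes of transcription and chromatin, 2 were called, Zhx3 and E2f1, beside 32 of all 421 (7.60%) and 0.666% of all genes. Zhx3, a zinc finger and homeobox repressor, had 45.0, 37.99, 51.9 and 87.5 CPM in Gcn2+/+;Gars+/+, 72.9 to 88.2 in Gcn2+/-;Gars+/+, and 98.9, 100.2 and 104.0 in Gcn2-/-;Gars+/+. With GarsP278KY/+ it had 68.1, 82.5, 38.01 and 49.3 CPM in Gcn2+/+, 113.1, 77.0, 78.2 and 78.1 in Gcn2+/-, and 104.5 to 144.6 in Gcn2-/-. No Gcn2+/+ library reached the Gcn2-/- range, and the 3 high Gcn2+/+ libraries and the high Gcn2+/- library are among those that stood apart. Zhx3 rose by 0.48 ± 0.08 (adjusted p = 0.003, edgeR). E2f1, a cell cycle transcription factor, rose by 0.19 ± 0.04 (adjusted p = 0.0304, edgeR) and was called in 20 of 34 settings. Outside the list, Esf1, a nucleolar protein of ribosome assembly, rose by 0.13 ± 0.03 (adjusted p = 0.0129, edgeR), and Rprd1b, which binds the tail of RNA polymerase II, by 0.08 ± 0.02 (adjusted p = 0.033, edgeR), the smallest rise of the 32. Dnmt3b, a DNA methyltransferase, changed by -0.37 ± 0.10, which did not pass the edgeR test (adjusted p = 0.0942, edgeR), though DESeq2 called it.

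Transcripts annotated as noncoding or as small nucleolar RNA hosts included the gene with the smallest p. Pcsk2os1, annotated antisense (chr2:143535476-143547837, minus strand), overlaps Pcsk2 at its start, and since the strand used in counting is not given, reads of the 2 genes may not be fully separated. It had 1.31, 1.21, 0.981 and 1.94 CPM in Gcn2+/+;Gars+/+, 2.10, 2.29, 1.89 and 1.89 in Gcn2+/-;Gars+/+, and 2.59, 3.51 and 3.60 in Gcn2-/-;Gars+/+. With GarsP278KY/+ the ranges were 0.947 to 1.58, 1.81 to 2.41 and 2.31 to 3.39 CPM. It rose by 0.58 ± 0.07 per copy (adjusted p = 0.000139, edgeR). Pcsk2, a prohormone convertase, was far more abundant, at a mean of 60.8 TPM against 2.44 TPM. It changed by 0.08 ± 0.02, just short of the threshold (adjusted p = 0.0505, edgeR), though DESeq2 called it.

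Snhg17 and Snhg11 host small nucleolar RNAs and are neighbours 39.9 Mb from Eif2ak4. Snhg17 rose by 0.44 ± 0.07 (adjusted p = 0.00358, edgeR), with medians of 4.11, 5.73 and 8.47 CPM at 2, 1 and 0 copies. Snhg11, the distal gene with the most counts, had 1321 to 1676 CPM in Gcn2+/+;Gars+/+, 1426 to 1697 in Gcn2+/-;Gars+/+ and 1665 to 2146 in Gcn2-/-;Gars+/+. With GarsP278KY/+ it had 1259 to 1814, 1750 to 1905 and 1886 to 2098 CPM. It rose by 0.18 ± 0.04 (adjusted p = 0.0143, edgeR), and only its GarsP278KY/+ Gcn2-/- libraries lay above all Gcn2+/+ libraries of the same Gars genotype. The processed transcripts Gm14169 and Gm14164 rose by 0.46 ± 0.10 and 0.41 ± 0.09 (adjusted p = 0.0205 and 0.0351, edgeR) from medians of 1.79 and 0.81 CPM. Nkx2-2os, an antisense gene named after its values were seen, had 0.0380 to 0.115 CPM in the 5 Gcn2+/+ libraries that did not stand apart and 1.02 to 1.47 in the other 3. Its change did not pass the edgeR test in all libraries (0.95 ± 0.27, adjusted p = 0.176, edgeR), though DESeq2 called it. Without the 5 libraries that stood apart it was called, at 2.05 ± 0.23 per copy (adjusted p = 5.21e-05, edgeR). That value is a description, because the libraries were picked by the levels of Ahcy and Cst12 on the same stretch.

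Of 26 genes of protein turnover and membrane traffic, Rbck1 alone was called, beside 32 of all 421 (7.60%) and 0.666% of all genes. Rbck1, a subunit of the linear ubiquitin ligase, rose by 0.20 ± 0.04 (adjusted p = 0.00412, edgeR), with medians of 42.9, 51.1 and 57.8 CPM at 2, 1 and 0 copies. Pdrg1, a component of a prefoldin-like complex, rose by 0.21 ± 0.04 (adjusted p = 0.00412, edgeR), with 17.2 to 23.3 CPM in the Gcn2+/+ and 24.1 to 30.2 in the Gcn2-/- libraries. Serinc3, a membrane protein, fell by 0.15 ± 0.03 (adjusted p = 0.0351, edgeR). The syntenin relative Sdcbp2 fell by 0.58 ± 0.12 (adjusted p = 0.0248, edgeR), and its level was low, with medians of 1.08, 0.82 and 0.43 CPM. Gm21994, whose reads may be shared with overlapping genes, fell by 0.73 ± 0.14 (adjusted p = 0.00922, edgeR) from a median of 2.34 to 0.893 CPM.

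The remaining lists held few calls. They stand beside 32 of all 421 distal genes called (7.60%, against 0.666% of all genes). An unadjusted p below 0.05 was found for 120 distal genes (28.5%, against 5.72% of all genes). Of 30 neuronal and synaptic genes, Kif16b was called, 12 had an unadjusted p below 0.05, and the list's median change was 0.04 log2 per copy. Of 16 vascular and immune genes, Ada was called, and the median change was -0.09. Procr, the endothelial protein C receptor, had medians of 1.08, 0.83 and 0.47 CPM at 2, 1 and 0 copies. Its change of -0.61 ± 0.16 was not called by edgeR (adjusted p = 0.1, edgeR), though DESeq2 called it. Its highest value, 2.85 CPM, was in a library high in Schwann cell and meningeal markers. Of 5 imprinted genes, edgeR called 0, 2 of them had an unadjusted p under 0.05, and none of the 5 was called by DESeq2 for the mean effect. Gnas, the stimulatory G protein subunit and the most abundant of the named genes at a mean of 1971 TPM, changed by 0.02 ± 0.02 per copy. Nnat, neuronatin, had 113.0 to 159.8 CPM in Gcn2+/+;GarsP278KY/+ against 71.1 to 78.8 in Gcn2+/+;Gars+/+, groups that do not overlap. That log2 difference of 0.79 ± 0.20 was called by DESeq2 and not by edgeR (adjusted p = 0.0653).

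The Gars mutation itself changed few distal genes in Gcn2+/+ mice. edgeR called 2, Cass4 and Btbd3, which is 0.475% of the distal genes against 0.632% of all genes, so the share was near the background. DESeq2 called 14 of the 421, against 3.72% of all genes, which is also near the background. Summed markers of spinal cord neurons were 3302 to 3833 CPM in Gcn2+/+;GarsP278KY/+ and 4727 to 5310 in Gcn2+/+;Gars+/+, and their part in these differences was not tested. Cass4, a scaffold of focal adhesions, had 0.269, 0.106, 0.340 and 0.501 CPM in Gcn2+/+;Gars+/+ and 0.959, 1.28, 2.37 and 1.29 in Gcn2+/+;GarsP278KY/+. These groups did not overlap, and the log2 difference was 2.01 ± 0.43 (adjusted p = 0.0322, edgeR). With GarsP278KY/+ Cass4 fell by 0.89 ± 0.20 per lost Gcn2 copy (adjusted p = 0.0428, edgeR), to 0.110 to 0.655 CPM in Gcn2-/-, whereas with wild-type Gars its change was 0.27 ± 0.24 (adjusted p = 1, edgeR). The difference of these 2 effects did not pass the test over all genes. Btbd3, which directs dendrite orientation, had 154.5 to 194.6 CPM in Gcn2+/+;Gars+/+ and 129.9 to 140.2 in Gcn2+/+;GarsP278KY/+, a difference of -0.30 ± 0.07 (adjusted p = 0.046, edgeR). Without the 5 libraries of another copy number, or without those high in Schwann cell genes, edgeR called 0 distal genes for Gars (14 by DESeq2 in all libraries). Without these libraries, in that order and with all 5 of the latter left out, the log2 differences were 2.52 and 2.24 for Cass4 and -0.28 and -0.29 for Btbd3, beside 2.01 and -0.30 in all libraries.

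The far end of the chromosome holds a cluster of closely similar zinc finger genes. It was taken here as the 48 distal genes between 55.9 and 59.6 Mb from Eif2ak4 whose symbols start with Zfp or Gm or end in Rik, so that it also holds Gm20721, which lies over Gnas. None of the 48 was called for Gcn2 copy number by edgeR or had an unadjusted p below 0.05, and DESeq2 called none. Reads of near-identical genes are shared out by the counting model, so the level of 1 member is uncertain. The members nonetheless varied widely between libraries. Gm14325 fell into 3 ranges, 14.4 to 18.0 CPM in 8 libraries, 34.7 to 40.6 in 11 and 58.5 to 66.2 in 5. Each range mixed Gcn2 genotypes. The low one held 3 Gcn2+/+ and 5 Gcn2-/- libraries. The middle one held 2 Gcn2+/+, 7 Gcn2+/- and 2 Gcn2-/-, and the high one 3 Gcn2+/+, 1 Gcn2+/- and 1 Gcn2-/-. The 3 Gcn2+/+ libraries of the low range were the same 3 that stood apart for Ahcy and Cst12. In all libraries the mean log2 change per lost copy was -0.22 ± 0.17 for Gm14325 and -0.33 ± 0.20 for Gm6710. Without the 5 libraries that stood apart it was -0.53 ± 0.14 for Gm14325 (adjusted p = 0.132, edgeR). For Gm6710 it was then -0.66 ± 0.17 (adjusted p = 0.112, edgeR). Neither was called, and these values are a description.

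Other cluster genes followed the same libraries. Gm6710 had 8.84 to 12.4 CPM in the 8 libraries of the low Gm14325 range, 19.2 to 37.4 in the middle 11 and 34.9 to 59.5 in the high 5. Gm14419 had 1.07 to 7.81, 12.4 to 24.97 and 22.9 to 34.1 CPM in the same sets, and Gm14418 5.45 to 10.7, 14.3 to 31.0 and 22.8 to 40.1. In 15 of the 48 cluster members, Gm14325 included, all 8 low libraries lay below the other 16, and in 3, Gm14305, Gm14434 and Gm4724, all lay above. Among the other 98 genes beyond 49.6 Mb and the 275 nearer genes, this complete split of libraries was found in 0. Gm5466, outside the cluster at 63.5 Mb, had medians of 2.23, 0.775 and 0.249 CPM in the low, middle and high sets. Its ranges over these sets overlapped. The sets were read off the values themselves, and the members share reads, so the counts are a description. Gm20721 did not show the ranges (3.81 to 7.28, 3.52 to 6.93 and 3.52 to 5.83 CPM).

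**Figure D5:**
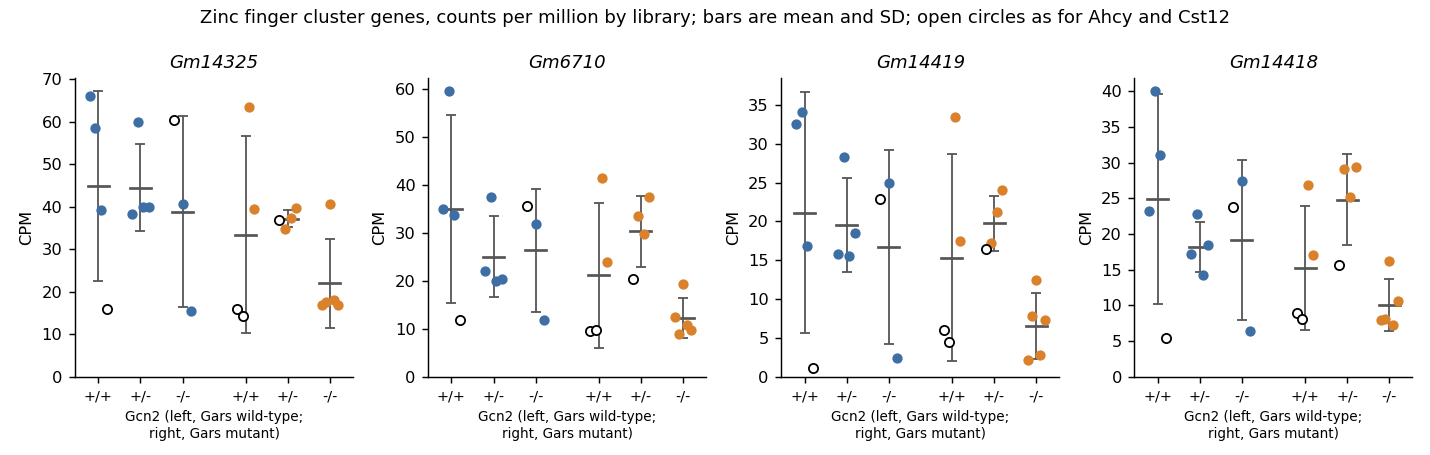
Level in CPM (vertical axes) of 4 genes of the zinc finger cluster in each of the 24 libraries by Gcn2 genotype, wild-type Gars in blue and GarsP278KY/+ in orange. Bars are the mean and SD, and open circles are the 5 libraries that stood apart at Ahcy and Cst12. Every group with 2 or 0 Gcn2 copies holds libraries on both sides of the gap between 18.0 and 34.7 CPM for Gm14325, while all 8 Gcn2+/- libraries lie at or above it.

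Gm26883 and Gm14292, also past 49.6 Mb, were listed at 0 in many libraries. Gm26883, a long intergenic noncoding RNA gene named because DESeq2 and edgeR with the title number as a further term called it, was at 3.73, 6.66, 0 and 0 CPM in Gcn2+/+;Gars+/+, at 0, 2.13 and 0 in Gcn2-/-;Gars+/+, at 7.06 in 1 of 4 Gcn2+/+;GarsP278KY/+ libraries and at 0 in all others. Gm14292, a processed pseudogene 60.7 Mb from Eif2ak4, was listed at 0 in 9 libraries, among them all 4 of Gcn2+/-;Gars+/+, and at 2.35 to 3.88 CPM in the other 15. Such values switch between present and absent in libraries of 1 group. Gm5466, the last of the 421 genes, had 0.231 to 2.57 CPM in Gcn2+/+, 0.0476 to 1.12 in Gcn2+/- and 0.249 to 2.67 in Gcn2-/- libraries, which overlap.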

How the data were processed

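Poly(A) RNA from whole spinal cord was sequenced as paired-end reads, 1 library per mouse, in 24 mice of 6 genotype groups. The expected counts per gene were made by the authors with RSEM 1.2.12 on Bowtie2 2.2.0 alignments, per the submitters' processing notes. The deposited TPM values, which are scaled to transcript length and library size, come from the same RSEM files, per the file headers, and were used only to compare levels between genes. Genome build, annotation and strand use in counting were not given in the sources used here. Gene positions were taken from GENCODE M21, which placed 37607 of 38924 genes; 0.261% of counts lay on genes without a position.

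Expected counts were rounded, filtered with filterByExpr, scaled by trimmed mean of M values (TMM) and fitted in R 4.3.3 with edgeR 4.0.16 (quasi-likelihood test, sex as a further term) over all 17409 genes passing the filter, with Benjamini-Hochberg adjustment over those genes. The change per lost copy is a slope over 2, 1 and 0 Gcn2 copies within each Gars genotype, and the mean effect is the mean of both slopes. DESeq2 1.42.0, other scalings, filters and terms, and leaving out each library were alternatives, and 3 more, which leave out libraries by their values, were chosen after seeing the data. The fitting code was tested on simulated data. Total expected counts per library (19727467 to 32392753) set the counting precision.

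The genes and the lists were chosen with earlier results of these data known. Named genes were Eif2ak4, the called genes of the smallest p (up to 25 for the mean effect and up to 5 for each other comparison), up to 3 of each list, up to 5 of the zinc finger cluster, the genes at the limits of the selection and the farthest called gene. Others were named after their values were seen: Gm26883, Gm14292 and Nkx2-2os, other genes above an alternative's threshold, and the called genes beyond the first 25.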

Additional observations from a re-analysis of the deposited data

Results flagged for a closer look

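In 175 groups of 4 or 5 libraries, over the named genes and genotypes, 10 had a library whose gap to the nearest other took up most of the group's range by Dixon's criterion. Chance gives about 1 in 20 such groups. Gcn2+/+;Gars+/+ replicate 4 was the highest of its group for Ahcy (14.24 CPM), Ttpal (39.85 CPM) and Dbndd2 (210.1 CPM). Gcn2+/-;GarsP278KY/+ replicate 1 was the highest for Ahcy (36.79 CPM) and Zhx3 (113.1 CPM) and the lowest for Acot8 (6.738 CPM). Both are among the 5 libraries that lay with another copy number at Ahcy and Cst12.

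The other 4 groups involved other libraries. Gm21994 was highest in Gcn2+/+;GarsP278KY/+ replicate 4 (2.58 CPM), Gss lowest in Gcn2+/-;Gars+/+ replicate 4 (23.33 CPM), Gm14169 lowest in Gcn2-/-;GarsP278KY/+ replicate 5 (2.727 CPM) and Ada highest in Gcn2-/-;GarsP278KY/+ replicate 3 (2.714 CPM).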

How the results depend on the processing

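The number of distal genes called depended on the test and the libraries. The counts below are given without shares of all genes, so they describe the distal genes only. The mean effect of the 32 called genes kept its direction in all 34 settings, while that of Foxs1 (-0.23 to 0.08) and Gm5466 (-0.18 to 0.52), not called in any, crossed 0. Over 64 results in single genes, 1882 of 2189 values kept their side of the threshold, 286 fell short of it and 21 newly passed it. DESeq2 called 4 distal genes per lost copy with wild-type Gars, 36 with GarsP278KY/+ and 57 for the mean effect, 1 for the difference of the effects, 5 and 36 for Gcn2-/- against Gcn2+/+ with wild-type Gars and GarsP278KY/+, 1 for the midpoint and 14 for Gars. Without the 5 libraries of another copy number the counts, in the same order, were 18, 28, 54, 0, 18, 29, 1 and 0. Without the 2 Gcn2+/+ libraries high in Schwann cell genes, they were 0, 2 and 19 for the first 3, 3 for Gcn2-/- against Gcn2+/+ with GarsP278KY/+ and 0 for Gars, and without all 5 such libraries 0, 3, 13, 0 and 0. With only the groups compared, the counts were 0 and 4 per lost copy, 1 and 2 for Gcn2-/- against Gcn2+/+ and 0 for Gars. Without the sex term they were 19 per lost copy with GarsP278KY/+, 1 for Gcn2-/- against Gcn2+/+ with wild-type Gars and 4 for Gars. With no filter on low genes they were 0 per lost copy with wild-type Gars and 1 for Gars. The title number as a term gave 0 per lost copy with wild-type Gars and 30 for the mean effect, 21 of the 32 among them, and title numbers in 2 sets gave 1 for Gcn2-/- against Gcn2+/+ with wild-type Gars.

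Leaving out each library in turn gave 0 to 2 calls per lost copy with wild-type Gars, 3 to 19 with GarsP278KY/+ and 16 to 36 for the mean effect. It gave 0 to 1 and 4 to 16 for Gcn2-/- against Gcn2+/+ with wild-type Gars and GarsP278KY/+, 0 for the difference and the midpoint, and 0 to 12 for Gars. With GarsP278KY/+ the count per lost copy was 3 without Gcn2+/+ replicate 3 or 4, 4 without Gcn2-/- replicate 5, 5 without Gcn2-/- replicate 1 or 3, 17 without Gcn2+/+ replicate 2 and 19 without Gcn2+/- replicate 1. For Gcn2-/- against Gcn2+/+ it was 6 and 4 without Gcn2+/+ replicates 3 and 4 and 5 without Gcn2-/- replicate 5. For Gars it was 12 without Gcn2+/+;Gars+/+ replicate 1. The cause of these shifts was not tested. No paired analysis was possible because the replicate numbers were given in accession order and pair no libraries. The title number, whose meaning the labels do not give, was fitted as a further term instead, with the counts above. The precision of genes of few counts, such as Cass4 and Nkx2-2os, is limited by depth. The result for Nkx2-2os also changed with the libraries left out, as given above.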
